A study of Mus musculus with 6 samples.

Results

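The 35 genes described here act in the cell cycle and in mitosis. They were chosen by name, as a fixed list, and all 35 were present among the 24421 genes of the count table. RNA-seq had been carried out on kidney cortex of mice whose proximal tubular epithelial cells express I-PpoI (PT-I-PpoI mice, called I-PpoI below, 3 libraries) and of wild type mice (WT, 3 libraries). I-PpoI is a homing endonuclease that makes double-strand breaks in DNA, and the comparison asks how cortical gene expression differs when proximal tubule cells carry it. The labels give no strain, age or further treatment, and they do not name the promoter or recombinase that drives I-PpoI. They number the libraries of a group but do not state how many mice these came from, and the p-values below therefore measure only the spread between these libraries. Values of a group are given in the order of replicates 1, 2 and 3 throughout.

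A cell that leaves rest makes D-type cyclins, which bind Cdk4 and Cdk6 and phosphorylate the retinoblastoma protein Rb1. E2F factors, released from Rb1, then switch on cyclin E, the nucleotide-making enzymes and the Mcm helicase, with which DNA is replicated in S phase. Cyclin A, the B-type cyclins with Cdk1, and the kinases and motors of the spindle carry the cell through G2 and mitosis, and their genes are transcribed late in the cycle through promoter elements bound by NF-Y and by the DREAM and MuvB complexes. Most tubule cells of the adult kidney are at rest, and transcripts of the late genes are usually rare in whole cortex, while D cyclins and Cdk4 are also present in resting epithelium. The list holds 10 genes of G1 and the G1/S step, 10 of DNA replication and 15 of G2 and mitosis.

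The promoters of these genes differ in the elements of that control by step of the cycle, and 4 are printed to show it, 2 from the mitosis group and those of the 2 helicase genes that varied most between libraries. The RefSeq promoter table for GRCm38.p6, with 250 bases before and 50 bases from the start site on, held promoters of 28 of the 35 genes, and Ccnd1, Ccnd2, Ccna2, Rb1, Ccne2, Mcm4 and Aurkb are given by name only. Letters in capitals mark matches, on either strand, to CCAAT (the NF-Y box), to TTTGAA or TTCGAA (forms of the cell cycle homology region, CHR) and to TTTCCCGC, TTTGGCGC or TTTCGCGC (forms of the E2F site), and matches that overlap run together. Ccnb2, cyclin B2 (chr9:70421505-70421804, minus strand), holds 3 CCAAT boxes and 2 CHR matches. Plk1, polo-like kinase 1 (chr7:122159185-122159484, plus strand), holds 1 of each. Mcm5 (chr8:75109259-75109558, plus strand) and Mcm6 (chr1:128359656-128359955, minus strand), both subunits of the replicative helicase, hold 2 and 3 E2F matches.
Ccnb2: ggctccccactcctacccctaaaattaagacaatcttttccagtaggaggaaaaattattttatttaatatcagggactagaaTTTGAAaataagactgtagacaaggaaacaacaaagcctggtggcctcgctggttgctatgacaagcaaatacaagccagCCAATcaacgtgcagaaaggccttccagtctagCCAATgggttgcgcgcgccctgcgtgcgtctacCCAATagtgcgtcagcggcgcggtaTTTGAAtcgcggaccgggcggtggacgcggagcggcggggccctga
Plk1: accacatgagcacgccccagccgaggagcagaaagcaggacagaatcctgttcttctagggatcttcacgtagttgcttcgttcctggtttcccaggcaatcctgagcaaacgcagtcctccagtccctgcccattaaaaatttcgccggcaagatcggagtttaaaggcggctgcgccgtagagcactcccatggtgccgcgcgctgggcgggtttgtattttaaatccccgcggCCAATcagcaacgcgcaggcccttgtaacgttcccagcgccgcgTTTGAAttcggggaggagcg
Mcm5: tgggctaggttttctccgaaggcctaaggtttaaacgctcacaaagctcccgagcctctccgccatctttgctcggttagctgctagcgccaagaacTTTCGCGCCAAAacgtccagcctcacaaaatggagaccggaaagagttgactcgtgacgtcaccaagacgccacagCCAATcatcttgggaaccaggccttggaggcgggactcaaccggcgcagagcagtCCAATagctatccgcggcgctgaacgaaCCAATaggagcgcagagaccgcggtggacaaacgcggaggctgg
Mcm6: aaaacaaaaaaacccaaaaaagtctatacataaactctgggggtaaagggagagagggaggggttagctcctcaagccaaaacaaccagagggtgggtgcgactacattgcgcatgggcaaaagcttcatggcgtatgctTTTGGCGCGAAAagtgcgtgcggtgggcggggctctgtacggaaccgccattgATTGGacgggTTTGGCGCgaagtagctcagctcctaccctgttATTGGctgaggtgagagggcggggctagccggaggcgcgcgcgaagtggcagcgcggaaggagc

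Over the genes with a promoter in the table, CCAAT was found for 22 of 28 cell cycle genes (78.6%), against 41.1% of all 27025 genes. A CHR match was found for 13 of 28 (46.4%), against 21.7% of all genes, and an E2F match for 6 of 28 (21.4%), against 2.12%. The matches differed between the steps of the cycle. A CCAAT box together with a CHR match was present for 11 of 13 mitosis genes (84.6%), for 2 of 9 replication genes (22.2%) and for 0 of 6 genes of G1 and the G1/S step, against 8.61% of all genes. E2F matches were found for 4 of 9 replication genes (44.4%), which were Mcm3, Mcm5, Mcm6 and Mcm7, for Cdk2 in the G1/S group and for Cdk1 in the mitosis group. Cdk4, Cdk6, E2f1 and Ccne1 held none of these letters in the window, nor did Tyms and Birc5. For E2f1 the window (chr2:154569377-154569676, minus strand) lay wholly inside the counted gene, which reaches to 154569892. For Cdk6 the window (chr5:3343643-3343942, plus strand) ended before the counted gene, which starts at 3344312. The bases directly before the start of the counted E2f1 and Cdk6 genes were thus not searched, though both are among the 6 genes of the G1 group. A match is a description of letters and shows no binding.

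Library totals ran from 13.6 M to 20.9 M counts. The library names are of 2 kinds, those whose closing number follows a hyphen (I-PpoI replicate 3, WT replicates 2 and 3) and those without one (I-PpoI replicates 1 and 2, WT replicate 1), and the labels do not say what the form stands for. The first principal component of all tested genes (43.1% of the variance) placed the libraries at -23.1, -30.2 and 11.8 in I-PpoI and at -0.54, 20.4 and 21.5 in WT, so that in both groups the plain names lay below the hyphenated ones. The proximal tubule markers of the labelled tissue were abundant, with a summed level of 4881 ± 933 TPM in I-PpoI and 6165 ± 894 TPM in WT (SD, n = 3 each; 1 of 7 genes above a log2 fold change of 0). Markers of the thick ascending limb (5 of 5 genes above 0) summed to 4087 ± 219 TPM in I-PpoI and 2911 ± 226 TPM in WT, and those of the collecting duct (6 of 6) to 876 ± 125 TPM in I-PpoI and 557 ± 16.9 TPM in WT. Markers of the inner medulla (2 of 2 tested genes above 0) summed to 42.4 ± 5.48 TPM in I-PpoI and 12.2 ± 3.68 TPM in WT. The part of these differences in the results below was not tested.

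In kidney cortex of I-PpoI mice, no tested gene of the list differed from WT beyond the spread between libraries. A minimum count of 10 in edgeR's expression filter left 32 of the 35 genes, and Ccne1, Bub1 and Aurkb fell below it. Of the 32, 0 passed edgeR's quasi-likelihood test at an adjusted p of 0.05, where 0.136% of all 13977 tested genes passed (19 higher and 0 lower). DESeq2 also called 0 of them, against 1.39% of all genes, and limma-voom and limma on the deposited rlog values called 0. In edgeR's test, 0 members were higher and 0 lower with an unadjusted p under 0.05, against 6.42% of all genes higher and 5.61% lower. In every one of the 32 genes the CPM of the groups overlapped, whereas 17.0% of all tested genes had groups that did not overlap. In TPM, which uses no TMM factor, Ccnd3 (higher) and Birc5 (lower) were the 2 members without overlap, against 16.9% of all tested genes. Fold changes were above 0 in 17 members and below 0 in 15, with a median log2 fold change of 0.01, beside 0.0004 over all tested genes, and they ran from -0.37 (Kif11) to 0.36 (Cdc20). In bulk tissue, fewer cycling cells and less RNA per cycling cell cannot be told apart.

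The precision differed between the steps of the cycle, as the plot of fold changes with their intervals shows. The 95% interval of the fold change lay within 1.5-fold in either direction for 5 of 9 genes of G1 and the G1/S step and for 6 of 10 replication genes, but for 0 of 13 mitosis genes. It lay within 2-fold for 8 of 9, 10 of 10 and 7 of 13 genes in the same order, and within 3-fold for all 32. Standard errors on the log2 scale had a median of 0.18 in the G1 group, 0.15 in the replication group and 0.35 in the mitosis group. For the other 6 of the 13 mitosis genes the interval reached beyond 2-fold. These intervals are not adjusted for the number of genes tested, so one within 2-fold does not show that a 2-fold difference would have passed. Cdkn2b, described below, was higher by 1.89 on the log2 scale and still missed the adjusted threshold. Standard errors of the mitosis genes ran from 0.27 to 0.55, and a 2-fold difference may have gone undetected in any of the 13.

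**Figure D1:**
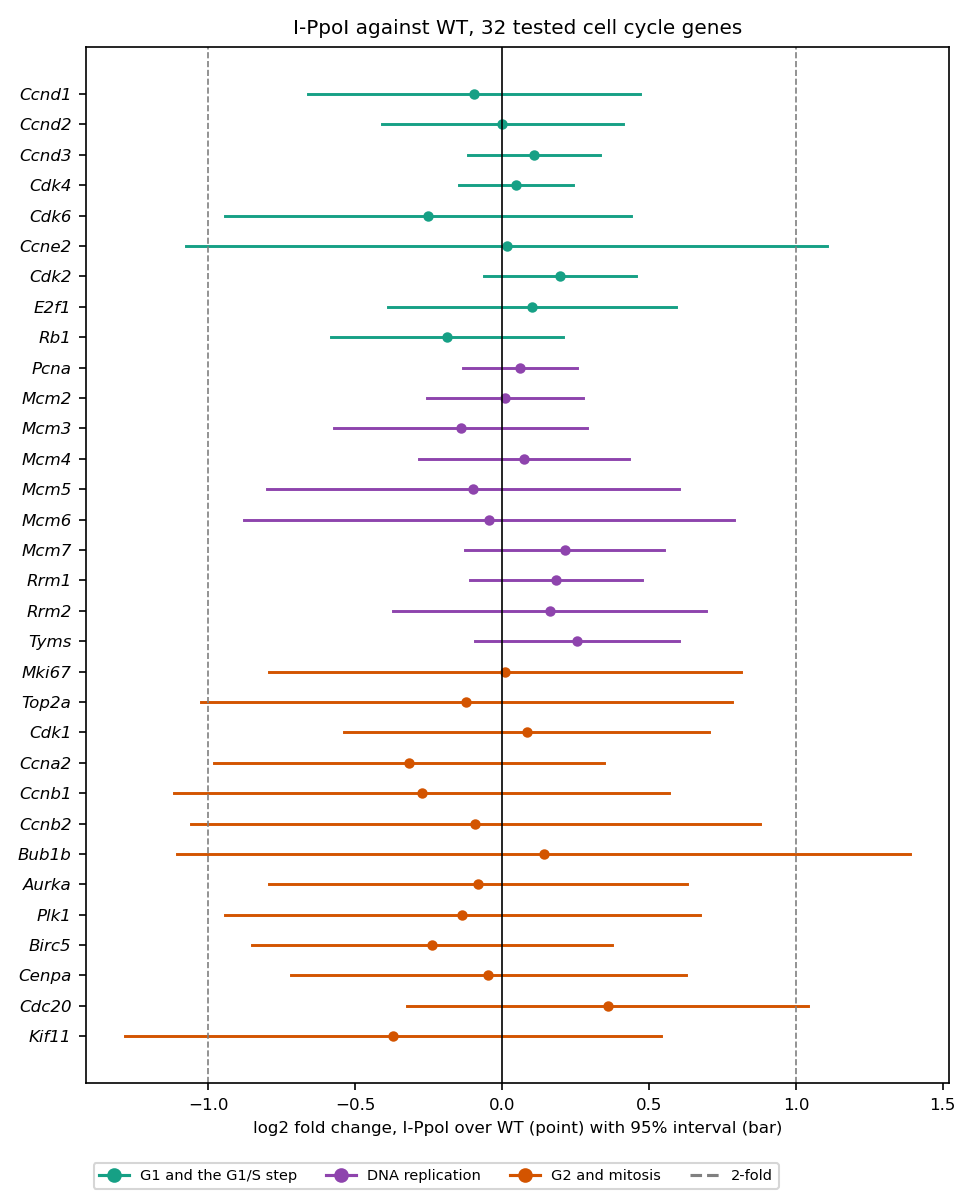
Log2 fold change of I-PpoI over WT for the 32 tested cell cycle genes (x axis; point, estimate of edgeR's quasi-likelihood fit; bar, 95% interval; 3 libraries per group), with genes by step of the cycle from top to bottom and dashed lines at 2-fold. Every bar crosses 0, and the bars of the mitosis genes are the widest of the 3 groups by median standard error.

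The members differed far more in level than in response. Per length of transcript, Cdk4 stood highest at a mean of 140.3 TPM over the 6 libraries, followed by Ccnd1 at 103 TPM, Ccnd3 at 73.7 TPM and Pcna at 64.0 TPM. Next came Mcm7 at 19.3 TPM, Rb1 at 11.9 TPM and Cdk2 at 10.4 TPM, which completed the 7 genes over 10 TPM. A further 16 genes lay from 1 to 10 TPM and 12 under 1 TPM, of which 10 belonged to the 15 mitosis genes. Ccnd1 and Cdk4 alone held 49.99% of the summed TPM of the list, and the 15 mitosis genes together 2.64%.

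**Figure D2:**
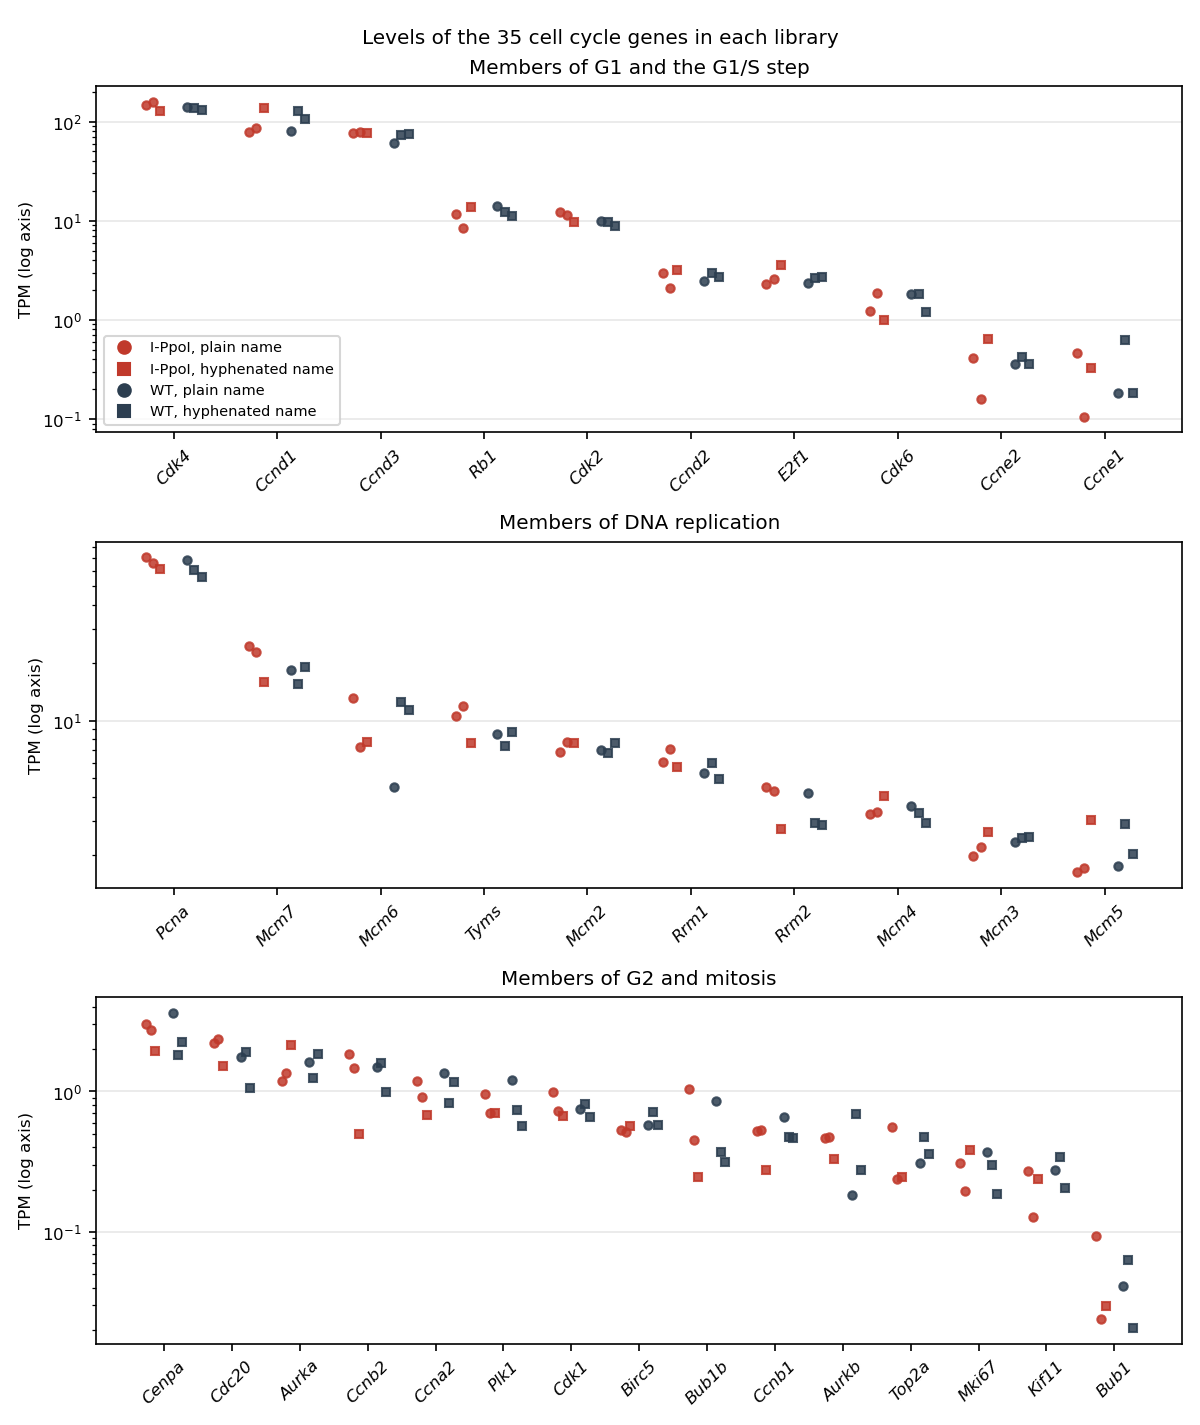
Level of each of the 35 genes in each library, in TPM on a log axis, with genes ordered by mean level within each step of the cycle (red, I-PpoI; dark blue, WT; circles, plain library names; squares, hyphenated names). Of the genes that passed the expression filter, red and blue points are apart for Ccnd3 and Birc5 alone, and no mitosis gene has a mean above 10 TPM.

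Among the cyclins that open G1, Ccnd1 (cyclin D1; chromosome 7, 144929931 to 144939925, mm10) had 154, 174 and 288 CPM in I-PpoI, against 163, 269 and 226 CPM in WT. The groups overlapped over nearly their whole range, and the highest library was an I-PpoI one. Its log2 fold change was -0.10 ± 0.25 (SE; edgeR adjusted p = 0.896). Ccnd3, cyclin D3, had 90.9, 94.8 and 96.3 CPM in I-PpoI, against 74.8, 92.6 and 94.3 CPM in WT, with WT replicate 1 as the low library (76.8, 78.5 and 77.2 TPM in I-PpoI, 61.3, 73.7 and 74.8 TPM in WT; log2 fold change 0.11 ± 0.10, edgeR adjusted p = 0.670). Ccnd2, cyclin D2, was much rarer, at 9.05, 6.51 and 10.1 CPM in I-PpoI and 7.61, 9.46 and 8.62 CPM in WT. The D-type cyclins thus consisted mostly of Ccnd1 and Ccnd3. Of their summed TPM, Ccnd1 held 54.7 ± 7.36% in I-PpoI and 58.7 ± 3.50% in WT, Ccnd3 43.8 ± 7.25% in I-PpoI and 39.8 ± 3.39% in WT, and Ccnd2 1.54 ± 0.33% in I-PpoI and 1.53 ± 0.15% in WT (SD, n = 3 each). Exons of Ccnd3 share 358 bases with Bysl, a gene on the other strand, and the counting used no strand.

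Of the kinases that these cyclins activate, Cdk4 was the main one in cortex. It had 104, 114 and 94.7 CPM in I-PpoI, against 102, 102 and 98.9 CPM in WT. The log2 fold change was 0.05 ± 0.09, with a 95% interval of the fold from 0.903 to 1.18 (edgeR adjusted p = 0.843). Cdk6 had 1.59, 2.48 and 1.35 CPM in I-PpoI and 2.41, 2.50 and 1.64 CPM in WT. Cdk4 therefore held 99.1 ± 0.22% of the TPM of this kinase pair in I-PpoI and 98.8 ± 0.23% in WT. Rb1, their substrate and the brake on E2F, had 28.5, 20.9 and 35.01 CPM in I-PpoI and 35.4, 31.5 and 28.8 CPM in WT, with the lowest and a near-highest library both in I-PpoI (log2 fold change -0.19 ± 0.17, edgeR adjusted p = 0.672). E2f1, an activating E2F factor, had 3.76, 4.30 and 6.17 CPM in I-PpoI and 3.90, 4.54 and 4.73 CPM in WT.

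Cdk2, the partner of cyclins E and A at the start of S phase (chromosome 10, 128697939 to 128705051), had the smallest p of the list. Its levels were 15.7, 15.0 and 13.1 CPM in I-PpoI, against 13.1, 13.2 and 11.95 CPM in WT. I-PpoI replicates 1 and 2 lay above all WT libraries and replicate 3 lay among them. The log2 fold change was 0.20 ± 0.11 (unadjusted p = 0.117, edgeR adjusted p = 0.499). The E-type cyclins were close to the limit of counting. Ccne2 was counted 13, 5 and 16 times in I-PpoI and 13, 10 and 13 times in WT. Of its 3220 exon bases, 1734 are shared with Ints8 on the other strand, and the part of this overlap in its counts was not tested. Ccne1 was counted 9, 2 and 5 times in I-PpoI and 4, 9 and 4 times in WT and was not tested.

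Pcna, the sliding clamp of the DNA polymerases and the most abundant replication gene, was also among the steadiest members. It had 46.6, 44.6 and 43.0 CPM in I-PpoI, against 46.5, 42.6 and 39.5 CPM in WT (log2 fold change 0.06 ± 0.09, edgeR adjusted p = 0.780), and its highest library was 1.18 times its lowest. Tyms, the thymidylate synthase that makes dTMP, had 21.1, 24.2 and 16.1 CPM in I-PpoI, against 17.5, 15.5 and 18.4 CPM in WT. As with Cdk2, I-PpoI replicates 1 and 2 were above the WT libraries and replicate 3 was not (log2 fold change 0.25 ± 0.15, unadjusted p = 0.130, edgeR adjusted p = 0.514). Rrm1, the large subunit of ribonucleotide reductase, had 12.6, 15.2 and 12.7 CPM in I-PpoI and 11.6, 13.3 and 11.01 CPM in WT (log2 fold change 0.18 ± 0.13, edgeR adjusted p = 0.573). Rrm2, the small subunit whose supply follows S phase, had 5.13, 5.02 and 3.26 CPM in I-PpoI, against 4.96, 3.56 and 3.49 CPM in WT. Its share of the TPM of both subunits was 37.5 ± 5.32% in I-PpoI and 37.9 ± 5.67% in WT (SD, n = 3 each).

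The 6 subunits of the Mcm helicase, a ring that unwinds DNA ahead of the polymerases, were unequal in mRNA level. Mcm7 held 45.7 ± 6.21% of their summed TPM in I-PpoI and 42.2 ± 6.51% in WT, and Mcm6 20.2 ± 4.91% in I-PpoI and 21.9 ± 8.72% in WT. Mcm3 and Mcm5 held the least, at 5.03 ± 1.30% and 4.78 ± 2.28% in I-PpoI and 5.77 ± 0.38% and 5.25 ± 1.21% in WT (SD, n = 3 each). The sum over the subunits was 51.1, 45.1 and 40.9 TPM in I-PpoI, against 37.4, 43.5 and 45.3 TPM in WT, so that the groups overlapped.

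Mcm7 had 30.5, 29.3 and 21.0 CPM in I-PpoI and 23.6, 20.7 and 25.4 CPM in WT (log2 fold change 0.21 ± 0.15, edgeR adjusted p = 0.570). Mcm6 (chromosome 1, 128331591 to 128359656) varied most of the replication genes, at 19.95, 11.3 and 12.3 CPM in I-PpoI and 7.08, 20.1 and 18.3 CPM in WT. Its highest library was 2.85 times its lowest, both of them in WT, and the log2 fold change of -0.04 ± 0.37 had a 95% interval of the fold from 0.545 to 1.73. Of the other subunits, Mcm2 had 12.1, 13.8 and 14.2 CPM in I-PpoI and 12.7, 12.6 and 14.4 CPM in WT. Mcm3 ran from 2.96 to 4.18 CPM in I-PpoI and from 3.61 to 3.98 CPM in WT, and Mcm4 from 6.09 to 8.01 CPM in I-PpoI and from 5.88 to 6.93 CPM in WT. In all 3 the I-PpoI and WT libraries overlapped. Over the 10 replication genes, 7 had fold changes above 0, and the median log2 fold change was 0.07.

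The genes of G2 and mitosis were detected in every library, but rarely. Their 15 transcripts together were counted 373, 283 and 208 times in I-PpoI, against 413, 228 and 298 times in WT. Their summed level was 15.2, 12.8 and 10.5 TPM in I-PpoI, against 15.1, 12.4 and 10.9 TPM in WT, that is 12.8 ± 2.36 TPM in I-PpoI and 12.8 ± 2.10 TPM in WT (SD, n = 3 each). The ranges of the groups nearly coincided. The replication genes summed to 143, 135 and 119 TPM in I-PpoI and 124, 121 and 118 TPM in WT, and the G1 group to 333, 350 and 374 TPM in I-PpoI and 313, 368 and 340 TPM in WT. Both of these sums overlapped between the groups as well.

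**Figure D3:**
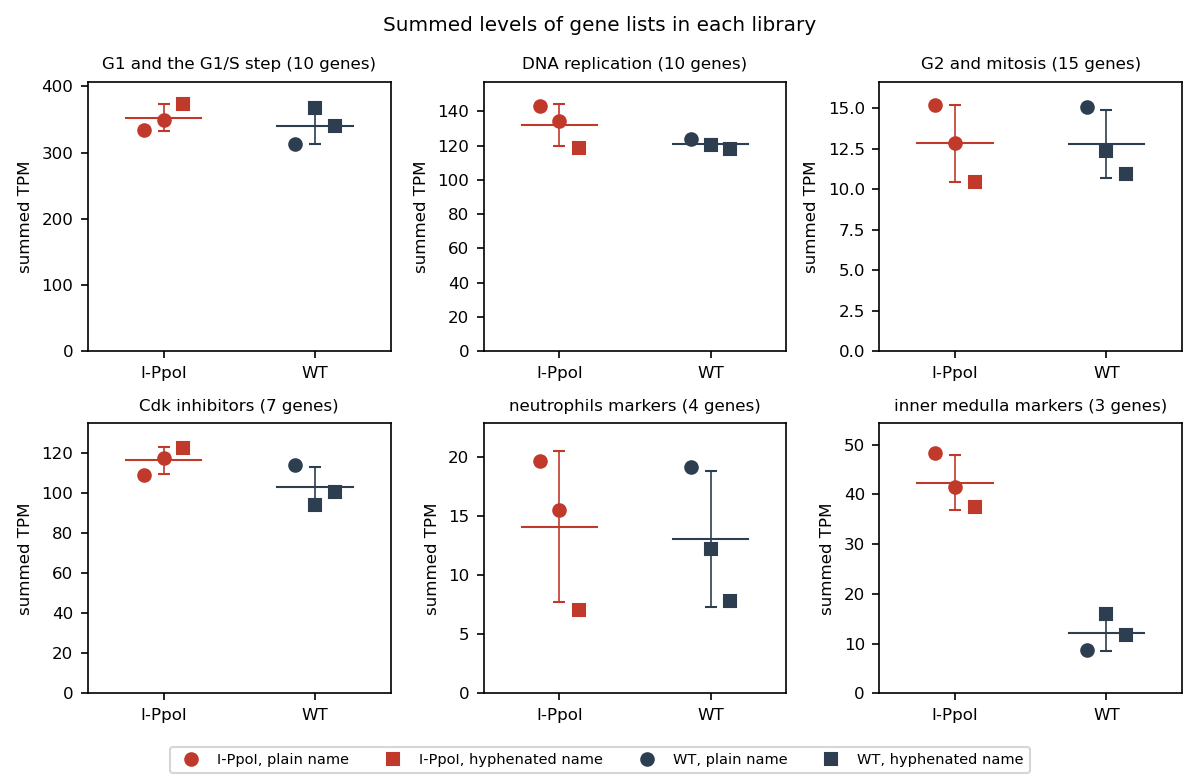
Summed TPM of the 3 groups of members, of the Cdk inhibitors and of 2 marker lists in each library (symbols; red, I-PpoI; dark blue, WT; circles, plain names; squares, hyphenated names), with the mean (line) and SD (bars) of 3 libraries per group. The mitosis sums average 12.8 TPM in both I-PpoI and WT and order by library name within both groups, as do the neutrophil markers, while the inner medulla markers separate I-PpoI from WT.

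Within the mitosis group, Mki67, which encodes the proliferation marker Ki-67 of the chromosome surface, was counted 31, 19 and 30 times in I-PpoI and 42, 22 and 21 times in WT. That corresponded to 1.64, 1.05 and 2.13 CPM in I-PpoI, against 2.02, 1.67 and 1.05 CPM in WT. The log2 fold change was 0.01 ± 0.35, with a 95% interval of the fold from 0.577 to 1.76 (edgeR adjusted p = 0.994). The ranges were almost the same. Top2a, the topoisomerase that untangles sister chromatids, had 1.53, 0.662 and 0.709 CPM in I-PpoI and 0.867, 1.36 and 1.05 CPM in WT, with I-PpoI at both ends of the range.

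Cdk1, the kinase that drives entry into mitosis, had 1.48, 1.10 and 1.06 CPM in I-PpoI and 1.16, 1.29 and 1.05 CPM in WT, and its interval of the fold ran from 0.690 to 1.63. Its cyclins had fold changes below 0 that did not pass the test. Ccna2, cyclin A2, had 1.75, 1.38 and 1.06 CPM in I-PpoI, against 2.07, 1.29 and 1.84 CPM in WT (log2 fold change -0.32 ± 0.29, edgeR adjusted p = 0.670), and its exons share 378 bases with Exosc9 on the other strand. Ccnb1, cyclin B1, had 0.635, 0.662 and 0.354 CPM in I-PpoI and 0.819, 0.606 and 0.598 CPM in WT. Ccnb2 had 1.48, 1.21 and 0.425 CPM in I-PpoI and 1.25, 1.36 and 0.847 CPM in WT. In all 3 cyclins, I-PpoI replicate 3, a hyphenated library, was the lowest of the 6.

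The mitotic kinases and their partners came next. Plk1, which acts from mitotic entry to cytokinesis, had 1.11, 0.828 and 0.850 CPM in I-PpoI, against 1.44, 0.909 and 0.697 CPM in WT. Aurka, the spindle pole kinase Aurora A, had 1.22, 1.43 and 2.34 CPM in I-PpoI and 1.73, 1.36 and 2.04 CPM in WT. Birc5 (survivin), a subunit of the chromosomal passenger complex with Aurora B, had 0.953, 0.938 and 1.06 CPM in I-PpoI and 1.06, 1.36 and 1.10 CPM in WT. In CPM none of these separated the groups, while Birc5 in TPM was at 0.533, 0.513 and 0.563 in I-PpoI and 0.574, 0.718 and 0.575 in WT, a gap far smaller than the spread within WT. Aurkb itself was counted 9, 9 and 5 times in I-PpoI and 4, 10 and 6 times in WT, below the filter.

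Bub1b (BubR1), a kinase-like protein of the spindle checkpoint, had 2.01, 0.883 and 0.496 CPM in I-PpoI, against 1.69, 0.757 and 0.647 CPM in WT. Replicate 1 was the highest in both groups, and the log2 fold change of 0.14 ± 0.55 had the largest standard error of the 32 tested members. Bub1, its relative, was counted 4, 1 and 1 times in I-PpoI and 2, 2 and 1 times in WT, the rarest member. Cdc20, the activator of the anaphase-promoting complex (chromosome 4, 118432901 to 118437343), had the highest fold change of the tested members. It was at 2.06, 2.26 and 1.49 CPM in I-PpoI, against 1.69, 1.89 and 1.05 CPM in WT (0.36 ± 0.30 on the log2 scale, edgeR adjusted p = 0.635), with I-PpoI replicate 3 inside the WT range. Kif11, the motor that pushes spindle poles apart (chromosome 19, 37376403 to 37421859), had the lowest, at 0.688, 0.331 and 0.638 CPM in I-PpoI and 0.722, 0.909 and 0.548 CPM in WT (-0.37 ± 0.40, edgeR adjusted p = 0.716). Cenpa, the histone H3 variant of centromeres, had 2.49, 2.32 and 1.70 CPM in I-PpoI and 3.08, 1.59 and 1.99 CPM in WT. Of the 13 tested mitosis genes, 4 had fold changes above 0, and the median log2 fold change was -0.09.

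Ccnd1 differed by the form of the library name. A term for the name form in the same fit as the group, a test chosen after the first values were seen, called 1 of the 32 members, Ccnd1, at an adjusted p of 0.05, where 3.06% of all genes were called, a share near that of the members. Ccnd1 had 288, 269 and 226 CPM in the hyphenated libraries (I-PpoI replicate 3, WT replicates 2 and 3), against 154, 174 and 163 CPM in the plain ones (I-PpoI replicates 1 and 2, WT replicate 1). Every hyphenated library was above every plain one, with a log2 fold change of hyphenated over plain names of 0.70 ± 0.09 (SE, edgeR adjusted p = 0.00835). In that fit the log2 fold change of Ccnd1 in I-PpoI over WT was 0.11 (edgeR adjusted p = 0.652), and none of the 32 members was called between I-PpoI and WT, where 0.458% of all genes were. The plots of 6 genes by group and name form show this split.

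**Figure D4:**
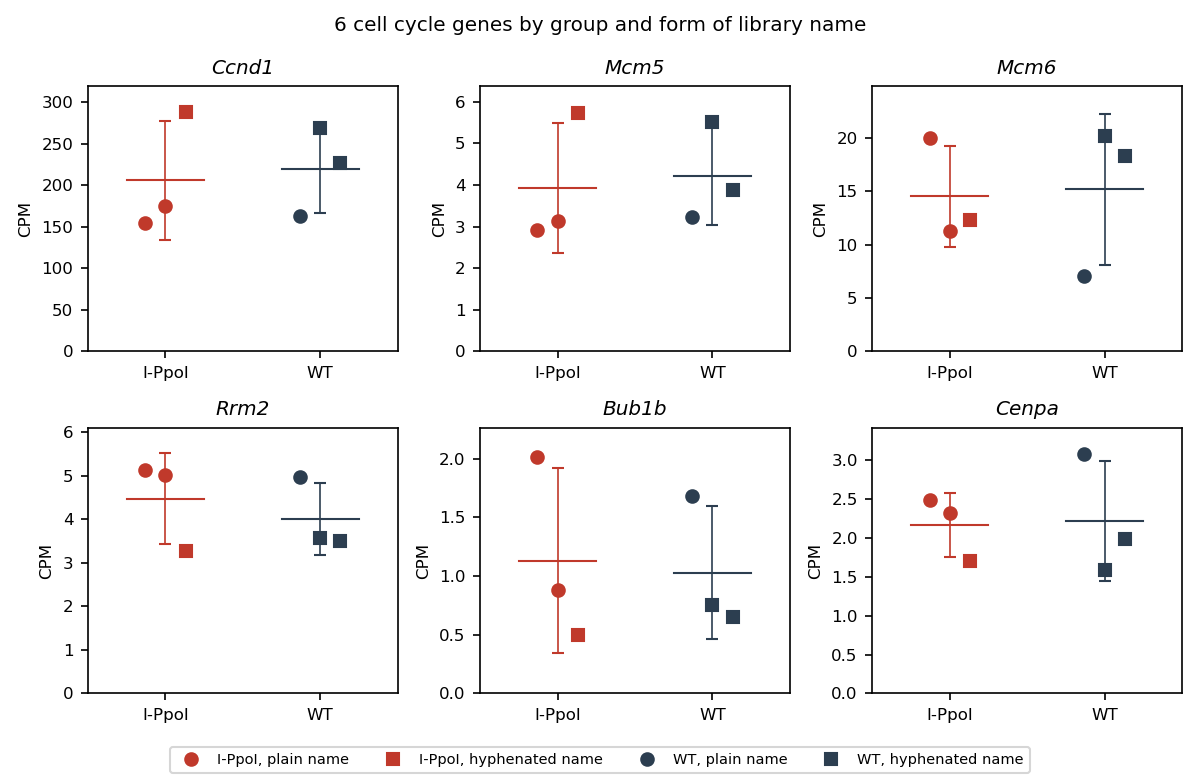
CPM of 6 cell cycle genes in each library, for I-PpoI (red) and WT (dark blue), with circles for plain and squares for hyphenated library names; lines and bars are the mean and SD of 3 libraries per group. Ccnd1 and Mcm5 are higher and Rrm2, Bub1b and Cenpa lower in each hyphenated library than in each plain one, whereas Mcm6 has its lowest library, at 7.08 CPM, among the plain and its highest, at 20.1 CPM, among the hyphenated ones.

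At an unadjusted p under 0.05 for the name form there were 7 of 32 members, 4 higher and 3 lower in hyphenated libraries, beside 18.8% of all genes. The higher ones were Ccnd1, Mcm5, E2f1 and Ccnd3, at log2 fold changes of 0.70, 0.72, 0.43 and 0.19, and the lower ones Bub1b, Cenpa and Rrm2, at -1.37, -0.65 and -0.56. Mcm5 had 5.74, 5.53 and 3.88 CPM in hyphenated libraries, against 2.91, 3.14 and 3.23 CPM in plain ones (log2 fold change 0.72 ± 0.21, edgeR adjusted p = 0.105). Rrm2 had 3.26, 3.56 and 3.49 CPM in hyphenated libraries, against 5.13, 5.02 and 4.96 CPM in plain ones (-0.56 ± 0.17, edgeR adjusted p = 0.115). The plain and the hyphenated libraries did not overlap for 5 members that were higher and 6 that were lower with a hyphen, where 25.5% of all genes did not overlap. Beside Ccnd1, E2f1, Mcm5, Rrm2, Bub1b and Cenpa these were Mcm3 and Birc5 (higher) and Cdk4, Pcna and Ccnb1 (lower). The share at the unadjusted threshold was thus near that of all genes.

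By step of the cycle, 10 of 13 mitosis genes had fold changes of hyphenated over plain names below 0, with a median log2 value of -0.39, against 5 of 10 replication genes (median 0.03) and 3 of 9 genes of the G1 group (median 0.19). Over all tested genes the median was -0.01, and over 31 tested further mitosis and cytokinesis genes, described below, it was 0.06. The lower median thus held for the 13 mitosis members and not for that longer list. The summed mitosis level was 10.5, 12.4 and 10.9 TPM in hyphenated libraries, against 15.2, 12.8 and 15.1 TPM in plain ones. In CPM the forms overlapped, at 14.7, 17.3 and 14.8 in hyphenated libraries and 19.7, 15.6 and 19.9 in plain ones. A list of 4 neutrophil markers ran the same way, at 7.10, 12.2 and 7.84 TPM in hyphenated libraries and 19.6, 15.6 and 19.2 TPM in plain ones, carried by S100a8 and S100a9, with Retnlg at 0 in I-PpoI replicate 3. The median log2 fold change of hyphenated over plain names was -0.95 for the neutrophil markers. It was also below 0 for markers of T and NK cells (-0.59), B and plasma cells (-0.56) and stroma and mural cells (-0.27), among others. It was above 0 for markers of the proximal tubule (0.29), collecting duct (0.06) and inner medulla (0.24) and for the 1 tested erythroid gene (1.18). The part of these cells in the mitosis levels was not tested. Of the 13 tested mitosis genes, I-PpoI replicate 1 and WT replicate 1 were the highest library for 4 each, and I-PpoI replicate 3 and WT replicate 3 the lowest for 4 each.

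Compared within 1 name form, the I-PpoI and WT libraries gave differing signs for 17 of the 32 members, 3 of 9 in the G1 group, 8 of 10 in the replication group and 6 of 13 in the mitosis group. The widest such split was that of Mcm6, with a log2 difference of I-PpoI over WT of 1.09 among plain names and -0.64 among hyphenated ones. Mki67 had -0.63 among plain and 0.69 among hyphenated names, and Ccnb2 had 0.10 among plain and -1.34 among hyphenated names. Cdk2 had the same sign in both, at 0.22 and 0.06. Each form holds 1 library of either group alone (WT replicate 1 among plain names, I-PpoI replicate 3 among hyphenated ones), so these differences have no test of their own.

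**Figure D5:**
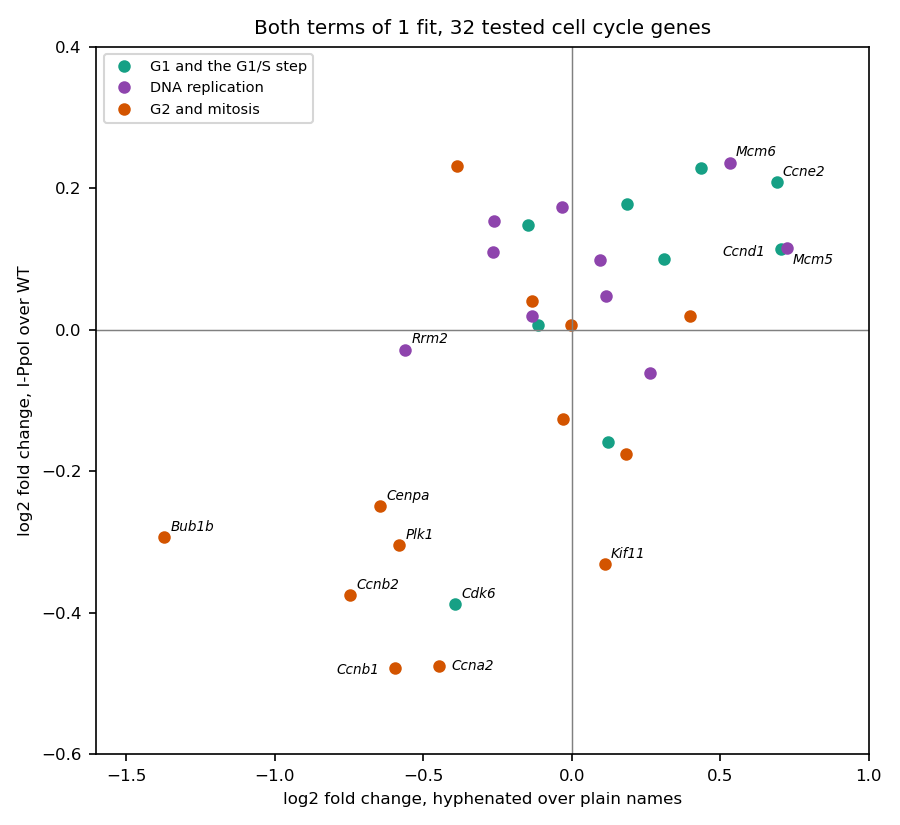
Log2 fold change of I-PpoI over WT (y axis) against that of hyphenated over plain library names (x axis), both from 1 edgeR fit with both terms, for the 32 tested members (points; colours give the step of the cycle; genes beyond 0.5 on the x axis or 0.3 on the y axis are named). Points reach from -1.37 to 0.72 along the x axis, and Ccnd1, at 0.70 on it, is the 1 member that passed the test for the name form.

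Further genes of the same pathways, from lists that do not overlap the 35, gave 0 calls between I-PpoI and WT by edgeR as well, and DESeq2, limma-voom and limma on the rlog values called none of them but Cdkn2b, which DESeq2 called higher. Of 33 further DNA replication genes, 29 were tested. Of these, 20 lay above a log2 fold change of 0, and the median was 0.19. An unadjusted p under 0.05 was reached by 6.42% of all genes higher and 5.61% lower, and here by 1 higher and 1 lower. These were Pold1, the catalytic subunit of DNA polymerase delta, at 6.51, 9.21 and 8.01 CPM in I-PpoI and 5.83, 5.60 and 6.42 CPM in WT (log2 fold change 0.41 ± 0.16, edgeR adjusted p = 0.392), and Mcm10, a factor that starts the helicase, at 2.38, 2.70 and 4.04 CPM in I-PpoI and 2.89, 7.80 and 6.33 CPM in WT (-0.89 ± 0.37, edgeR adjusted p = 0.395). Pold1 did not overlap between the groups and Mcm10 did. Dut, the dUTPase that keeps uracil out of DNA, was next by p, at 18.6, 21.8 and 19.1 CPM in I-PpoI and 16.7, 18.3 and 14.1 CPM in WT. The groups did not overlap for 6 of the 29 that were higher and 2 that were lower, where 17.0% of all genes did not overlap.

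Of 53 further mitosis and cytokinesis genes, 52 were in the table and 31 were tested, 21 of them above a log2 fold change of 0, with a median of 0.14. Of these 1 was higher and 1 lower when the unadjusted p had to be under 0.05, beside 6.42% of all genes higher and 5.61% lower. Nek2, a centrosome kinase, had 5.13, 4.85 and 4.25 CPM in I-PpoI, against 6.31, 5.98 and 6.13 CPM in WT, with every I-PpoI library below every WT library (log2 fold change -0.37 ± 0.14, unadjusted p = 0.0327, edgeR adjusted p = 0.383). Spc25, a kinetochore subunit, had 43.8, 37.2 and 34.0 CPM in I-PpoI and 33.3, 27.3 and 33.5 CPM in WT (0.29 ± 0.12, edgeR adjusted p = 0.399). Cenpe, a kinetochore motor, had 1.69, 1.66 and 2.06 CPM in I-PpoI and 2.17, 2.95 and 2.54 CPM in WT (-0.50 ± 0.23, edgeR adjusted p = 0.427). All 3 were without overlap, in differing directions. Over the 31 tested genes, 1 that was higher and 3 that were lower did not overlap, where 17.0% of all genes did not overlap. The 26 tested of 28 regulators of Rb, E2F and Cdk activity had 11 genes above a log2 fold change of 0, a median of -0.05 and 0 genes with an unadjusted p under 0.05. The smallest p there belonged to Myc, the growth-promoting transcription factor (log2 fold change 0.74 ± 0.33, edgeR adjusted p = 0.421), at 15.5, 18.2 and 6.66 CPM in I-PpoI and 9.49, 8.93 and 6.03 CPM in WT. Without I-PpoI replicate 3, the lowest of the I-PpoI libraries, Myc passed (1.05, edgeR adjusted p = 0.0300). With that library left out, 261 of all genes passed as higher and 364 as lower, beside 19 higher and 0 lower in the main fit. Lin37, a MuvB subunit, was at 0.30 ± 0.15 and Wee1, the kinase that holds Cdk1 inactive, at -0.36 ± 0.21 on the log2 scale (edgeR adjusted p = 0.455 and 0.502).

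The inhibitors of the Cdks were the remaining list, with 6 of 7 genes tested and a summed level of 109, 118 and 123 TPM in I-PpoI and 114, 94.1 and 101 TPM in WT, which overlapped. Cdkn2b (p15), which blocks Cdk4 and Cdk6, had 4.18, 5.52 and 3.19 CPM in I-PpoI, against 1.01, 1.44 and 1.10 CPM in WT. Every I-PpoI library lay above every WT library, in both name forms, and the log2 fold change was 1.89 ± 0.27. It did not pass when adjusted over the 13977 genes (edgeR adjusted p = 0.0561), but it did in the fit that also holds the name form (1.80, edgeR adjusted p = 0.0452) and without I-PpoI replicate 3 (2.06, edgeR adjusted p = 0.0124), with adjusted p from 0.0124 to 0.394 over the libraries left out. The inner medulla markers differed between the groups in the same direction, with a summed level of 48.3, 41.4 and 37.4 TPM in I-PpoI and 8.72, 16.1 and 11.8 TPM in WT (both tested genes of 3 above 0, and Fxyd3 at 0 in I-PpoI replicate 3), and their part in the Cdkn2b level was not tested. Cdkn2c (p18) had 14.0, 13.7 and 12.4 CPM in I-PpoI and 13.8, 15.8 and 15.0 CPM in WT, and Cdkn2d (p19) had 10.2, 11.9 and 7.87 CPM in I-PpoI and 10.2, 6.28 and 7.02 CPM in WT. Neither passed. Cdkn2a (p16 and p19Arf) was counted in WT replicate 2 alone and was not tested.

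Among the inhibitors that act on several Cdks, Cdkn1a (p21), a p53 target, had 18.7, 23.0 and 22.5 CPM in I-PpoI, against 34.7, 12.8 and 19.4 CPM in WT (log2 fold change -0.08 ± 0.30, edgeR adjusted p = 0.933). Both the highest and the lowest library were WT ones. Cdkn1b (p27) had 38.9, 37.2 and 45.4 CPM in I-PpoI and 38.0, 44.3 and 45.9 CPM in WT (-0.08 ± 0.11, edgeR adjusted p = 0.780). Cdkn1c (p57) had 28.4, 32.6 and 46.4 CPM in I-PpoI and 26.9, 28.2 and 28.4 CPM in WT (0.36 ± 0.16, edgeR adjusted p = 0.426), with I-PpoI replicate 3 far above the rest and replicate 1 of I-PpoI level with the WT libraries.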

How the data were processed

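The authors deposited raw counts of read pairs per gene over exons, made with featureCounts 1.5.2 with no strand option, per the file headers, after mapping with HISAT2, per the labels' protocols. The header names mm10 and the labels mm9. All 35 genes overlapped their GRCm38.p6 (mm10) positions, so coordinates are given as mm10. The deposited log2 values are on the regularized log scale and served an alternative only. The 35 genes and all lists were chosen with earlier results of these data known. All genes were fitted in R 4.3.3 with edgeR 4.0.16 (TMM factors, default expression filter with a minimum count of 10, quasi-likelihood test, two-sided, Benjamini-Hochberg adjustment over 13977 genes, threshold 0.05), which was tested on simulated data. CPM use the TMM-scaled library total, and TPM were computed from counts and the exon length in the table. Means are given with SD and log2 fold changes with SE. Named genes are the 35, the 3 with the smallest p of each further list, and all Cdk inhibitors. The name form was read from the library names. Exons of 5 members overlap another gene (Cdc20 with Elovl1 by 52 bases and Ccnd1 with Mir3962 by 20, beside those named above). Alternatives were other size factors and filters, DESeq2 1.42.0, limma 3.58.1, a replicate block, the name form as a term and leaving out each library. No 2 libraries agreed within sampling noise.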

Additional observations from a re-analysis of the deposited data

How the results depend on the processing

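The count of 0 members called between I-PpoI and WT held under every alternative run, which were RLE and upper-quartile factors, no filter, a CPM of at least 1 in 3 libraries (27 members tested), DESeq2, limma-voom, limma on the rlog values, a replicate block, a name form term, and each library left out. The lowest adjusted p of a member over all of them was 0.0885, for Tyms without I-PpoI replicate 3, where 4 of 32 members and 23.9% of all genes were under an unadjusted p of 0.05, and 0 members and 625 of all genes passed the adjusted threshold. Over all genes, 19 calls became 47 with no filter, 194 by DESeq2, 40 with a replicate block and 64 with a term for the name form. They became 14 with RLE factors, 15 with upper-quartile factors, 14 with the CPM filter, 14 by limma-voom and 13 by limma on the rlog values. With 1 library left out there were from 0 to 625 (0 without I-PpoI replicate 1, I-PpoI replicate 2 or WT replicate 3, 2 without WT replicate 1 and 9 without WT replicate 2). The cause was not tested. Deviations of same-numbered libraries correlated at 0.22, -0.13 and 0.16, so the numbers were not taken as pairs.

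Members near 0 changed sign without being called. Once the fit held the name form, the log2 fold change was 0.11 for Ccnd1, 0.12 for Mcm5, 0.24 for Mcm6, -0.028 for Rrm2, -0.29 for Bub1b and 0.020 for Aurka. That of Ccnd2 was -0.0023 with RLE factors, -0.0024 by DESeq2, -0.00087 with no filter, -0.017 by limma-voom, -0.0046 by limma on the rlog values and -0.0047 with a replicate block. By limma-voom Ccne2 was at -0.18 and Mcm6 at 0.11, and Mcm6 was at 0.010 with a replicate block. With each library left out in turn, the log2 fold change ranged between -0.41 and 0.075 for Ccnd1, -0.13 and 0.17 for Ccnd2, -0.025 and 0.11 for Cdk4, -0.46 and 0.41 for Ccne2, -0.12 and 0.25 for E2f1, -0.034 and 0.081 for Mcm2, -0.048 and 0.15 for Mcm4, -0.45 and 0.13 for Mcm5, -0.39 and 0.20 for Mcm6, -0.23 and 0.26 for Mki67, -0.65 and 0.10 for Top2a, -0.092 and 0.17 for Cdk1, -0.43 and 0.24 for Ccnb2, -0.57 and 0.74 for Bub1b, -0.39 and 0.11 for Aurka, -0.37 and 0.24 for Plk1, and -0.22 and 0.27 for Cenpa. The other 15 members kept their sign with each library left out. Of the further genes named, Cdkn1a was at 0.0028 by limma on the rlog values, at 0.023 with a replicate block and between -0.34 and 0.39 with each library left out, and Cdkn1b at 0.0053 in the fit with the name form. Cdkn2b was above 0 in all alternatives and passed with no filter (adjusted p = 0.0224), by DESeq2 (1.25e-05), with a replicate block (0.0421), with the name form (0.0452) and without I-PpoI replicate 3 (0.0124), with adjusted p from 0.056 to 0.394 in the others. Myc passed without I-PpoI replicate 3 alone (log2 fold change 1.05, adjusted p = 0.0300). The 13 tested mitosis genes had 66 to 238 counts each, summed over 6 libraries, with a median standard error of 0.35 on the log2 scale, and the part of depth in it was not tested.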
